A study of Mus musculus with 24 samples.

Results

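The cytosolic ribosomal protein genes of mouse T cells were examined across 4 cell types and 6 treatments. Members were the protein-coding genes of the deposited table whose symbols begin with Rpl or Rps and a number, together with Rplp0, Rplp1, Rplp2 and Rpsa. The ribosomal S6 kinases, whose symbols begin with Rps6k, and Rps19bp1 were left out. The rule found 92 of 56748 genes. By symbol alone, 53 were counted with the large subunit, 36 with the small subunit and 3 with the P stalk. Some of them, such as Rpl10-ps3 and Rpl36a-ps1, carry pseudogene names though the file calls them protein-coding. Bulk poly(A) RNA sequencing had been done on Th1, Th17 and regulatory (Treg) cells polarized in culture and on activated CD8 T cells. All cells were of the WT genotype. Each cell type received the vehicle DMSO or 0.1 µM of 1 of 5 agonists of the kappa opioid receptor, a G protein-coupled receptor. The agonists, WMS-83, WMS-76, WMS-75, WMS-64 and WMS-200, are known here by code only, and exposure lasted up to 5 days. Each of the 24 combinations was 1 library, so libraries of a cell type differed in treatment and no combination was repeated. The sources used here do not give the strain, sex or age of the mice or say whether libraries shared animals. A WT number in the column names is left unexplained by the labels. It was 4 in every Th1 and 2 in every CD8 library. In Th17 it was 2 for DMSO, 3 for WMS-83 and 1 otherwise, and in Treg 3 for DMSO and WMS-200 and 2 otherwise. One Th1 library, with WMS-83, has a title that names Th17, against its other labels, and was used as Th1.

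Each cytosolic ribosome is built from ribosomal RNA and a single copy of most of these proteins, so their mRNAs are made in near-matched amounts and are among the most abundant in a growing cell. The large subunit forms peptide bonds, the small subunit decodes mRNA, and the P stalk recruits the elongation factors. Most of these mRNAs begin with a C followed by a run of pyrimidines (the TOP motif), through which mTORC1 and LARP1 control their translation and stability. T cell activation is known for a steep rise in ribosome production, driven by Myc and mTORC1. A few members are paralogs (Rpl22l1, Rps27l, Rpl7l1) that can replace or accompany a common partner.

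The start sites of 10 members are shown because the results below turn on these genes and because the TOP motif would lie there. The sequences came from RefSeq (assembly GRCm38.p6), where 66 of the 92 members matched by symbol. Each line runs 5′ to 3′ along the gene's strand, with 50 bases before the annotated start and 30 from it, and capitals mark the longest unbroken run of C and T that begins with a C within 15 bases of the start, where it held at least 6 letters. The first 3 fell far in Treg or belong with a paralog pair.
Rps12: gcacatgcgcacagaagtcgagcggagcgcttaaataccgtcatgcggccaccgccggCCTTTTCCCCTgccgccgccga
Rps27: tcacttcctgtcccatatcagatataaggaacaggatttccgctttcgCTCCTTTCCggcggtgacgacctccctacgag
Rps27l: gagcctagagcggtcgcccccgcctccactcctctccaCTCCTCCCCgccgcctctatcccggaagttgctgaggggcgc
These lie at chr10:23787180-23787259, minus strand, chr3:90213619-90213698, minus strand, and chr9:66946036-66946115, plus strand. The next 3 are Rpl22 and the paralogs Rpl22l1 and Rpl7l1. Rpl22 and Rpl7l1 held no such run within 15 bases of the start, and the runs of C and T that their windows hold lie farther away.
Rpl22: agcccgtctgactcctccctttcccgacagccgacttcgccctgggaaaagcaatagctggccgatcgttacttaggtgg
Rpl22l1: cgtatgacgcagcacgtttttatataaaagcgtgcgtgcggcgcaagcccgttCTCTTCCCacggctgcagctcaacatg
Rpl7l1: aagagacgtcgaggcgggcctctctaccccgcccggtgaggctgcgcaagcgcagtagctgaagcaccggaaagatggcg
These lie at chr4:152325676-152325755, plus strand, chr3:28805458-28805537, plus strand, and chr17:46782627-46782706, minus strand. The last 4 are Rps10, the only member called higher in Treg, and 3 members that differed among the other cell types.
Rps10: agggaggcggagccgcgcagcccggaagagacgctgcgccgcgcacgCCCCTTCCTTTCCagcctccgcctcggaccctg
Rpl13a: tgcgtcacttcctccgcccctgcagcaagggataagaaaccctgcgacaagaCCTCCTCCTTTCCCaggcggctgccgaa
Rps7: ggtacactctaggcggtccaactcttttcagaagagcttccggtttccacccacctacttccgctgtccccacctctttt
Rpl18: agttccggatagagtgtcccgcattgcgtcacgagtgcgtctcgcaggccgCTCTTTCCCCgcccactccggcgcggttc
These lie at chr17:27635215-27635294, minus strand, chr7:45128716-45128795, minus strand, chr12:28635924-28636003, minus strand, and chr7:45718021-45718100, plus strand. Rps7 likewise held none within 15 bases. Such a run was present in 37 of 66 matched members (56.1%), against 26.3% of 27025 windows of the same length over all genes and 26.9% of the 10720 windows of genes that passed the filter on low counts. The letters CGGAAG, on either strand and in windows from 250 bases before to 50 after the start, were in 65.2% of members, 17.2% of all windows and 31.5% of those of the genes that passed. CTCTTTCC was in 13.6% of members, 3.04% of all windows and 3.09% of those that passed. AAGATGG was in 13.6, 6.48 and 7.27%, and CTTTTCC in 15.2, 8.13 and 7.89%. These are matches of letters in annotated windows and not mapped start sites.

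The libraries held between 15188284 (Treg with DMSO) and 21946887 counts (Th1 with DMSO). The cell types carried their markers. Foxp3, the factor that defines Treg cells, averaged 282 ± 79.9 CPM (counts per 1e6 on a library size scaled by TMM; SD, n = 6) in Treg and 3.73 to 34.0 in the others. Ifng averaged 592 in Th1 and 1369 in CD8, Il17a 144 in Th17, and Cd8a 389 in CD8. Of 4 Treg markers 3 were higher in Treg and Il2ra was lower. Of the 92 members, 86 passed the filter on low counts among 15885 genes that did. Those removed were Rpl39l with 144 counts over all libraries, Rpl3l with 50, Rps23rg1 with 5, Rpl36-ps4 with 1, and Rps18-ps6 and Rpl10l with 0. A count of 0 over all libraries allows up to 0.00662 CPM (3 counts, counting error only).

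The family spanned a wide range of levels. Per kilobase of annotated gene length, the stalk gene Rplp1 was highest with a mean of 3342 CPM. Rps3a1 followed at 2630, Rplp0 at 2306, Rpl4 at 1976 and Rps15 at 1927. The lowest past the filter were Rpl36al at 0.868, Rpl24 at 1.70, Rps10 at 3.48, Rpl36a-ps1 at 11.9 and Rpl10-ps3 at 18.6. This order depends on the annotated lengths, which differ widely (499 bases for Rplp1 and 6270 for Rps15a). Other gene models lie over Rpl36al, Rpl24 and Rps10 on the same strand. How reads they share were assigned is not given, so the levels of these members are uncertain. Without division by length, Rpsa stood at 4444 CPM, Rpl4 at 3966, Rplp0 at 3825 and Rplp1 at 1668. Most members were abundant, with 80 of 92 at or above 100 CPM and 10 under 10 CPM. The median member stood at 678 CPM per kilobase in Th1, 596 in Th17, 573 in CD8 and 99.2 in Treg. The order of members was close to the same everywhere. Across the 86 members, log2 CPM correlated between cell types at r = 0.997 (Th1 and Th17) and 0.999 (Th1 and CD8), and at 0.960 to 0.963 with Treg. These are correlations across genes, which share libraries and are not replicates.

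Together the 92 genes took 9.68 to 12.83% of all counts in libraries of 3 cell types and far less in Treg. In Th1 their share was 12.46% with DMSO, 12.69% with WMS-83, 11.83% with WMS-76, 11.64% with WMS-75, 11.72% with WMS-64 and 12.77% with WMS-200. In Th17 it was 11.49, 12.64, 12.83, 9.68, 12.72 and 11.58% in the same order. In CD8 it was 11.06, 10.50, 10.53, 10.38, 11.22 and 10.83%. In Treg it was 1.67, 2.64, 2.23, 2.27, 2.88 and 2.08%. All 6 Treg libraries lay under all 18 others, Th1 lay above CD8 without overlap, and Th17 overlapped both. The means were 12.2 ± 0.512% in Th1, 11.8 ± 1.20% in Th17, 10.8 ± 0.337% in CD8 and 2.30 ± 0.424% in Treg (SD, n = 6), or 5.31 times as much in Th1 as in Treg. Exact Clopper-Pearson intervals at 95% were at most 0.0310 percentage points wide and cover counting error only. CD8 libraries and 4 Treg libraries share the WT number 2, and within it the shares were 10.38 to 11.22% in CD8 and 2.23 to 2.88% in Treg. The 321 named ribosomal protein pseudogenes moved alongside, with a mean share of 0.421% in Th1, 0.394% in Th17, 0.379% in CD8 and 0.0896% in Treg. In bulk RNA, fewer cells of a type and less RNA per cell cannot be told apart.

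**Figure D1:**
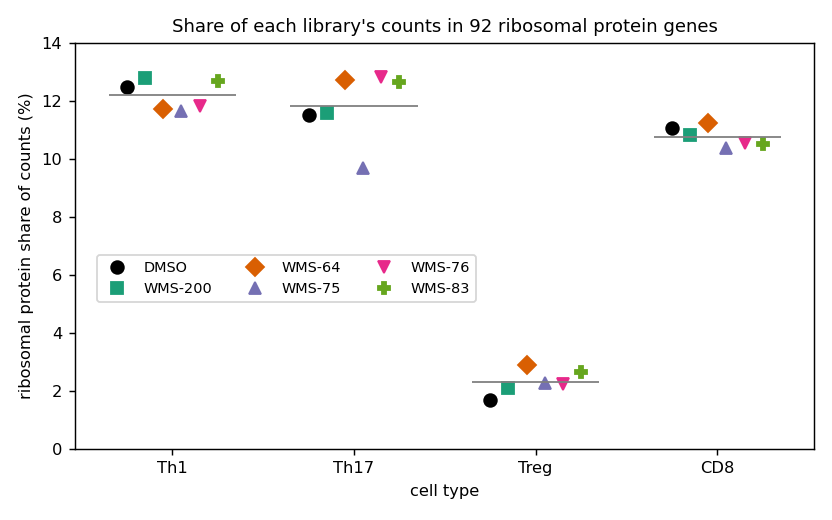
Share of each library's counts in the 92 ribosomal protein genes (y axis, percent) by cell type (x axis). Each symbol is 1 library, shaped and coloured by treatment, and the line is the mean of 6. The Treg libraries sit between 1.67 and 2.88%, and the other 18 between 9.68 and 12.83%.

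In Treg, transcripts of the whole family were low. Against the mean of Th1, Th17 and CD8, 83 of 86 members were lower, 1 was higher and 2 did not pass (edgeR quasi-likelihood test, Benjamini-Hochberg adjusted p under 0.05). Of all genes tested, 37.9% were lower and 42.6% higher. The median member differed by −2.72 on the log2 scale (quartiles −2.94 and −2.44), against 0.10 for all genes. The 83 lower members fell by 2.78-fold to 10.8-fold, with a median of 6.61-fold. For 83 members the 6 Treg libraries all lay below the other 18, as for 21.9% of all genes. The same 83 members were lower in each of the 24 fits that left out 1 library.

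All 3 stalk genes fell, with a median difference of −3.13. Rplp0, which anchors the stalk, had lowest, median and highest values of 4932, 5401 and 5929 CPM in Th1, 4306, 5843 and 6656 in Th17, 3335, 3691 and 3824 in CD8, and 375, 534 and 768 in Treg. The highest Treg library was thus under every other library, and the difference was −3.13 ± 0.12 (log2, SE). Rplp1, which with Rplp2 forms the dimers of the stalk, had medians of 2309 CPM in Th1, 2160 in Th17, 2054 in CD8 and 199.5 in Treg, where it ran from 127 to 273. Its difference of −3.43 ± 0.12 was the largest fall of any member (edgeR adjusted p = 9.50e-19). Rplp2 had medians of 822, 850.5, 693 and 120 CPM in Th1, Th17, CD8 and Treg and differed by −2.67 ± 0.09.

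Of the large subunit genes 47 of 49 fell, with a median of −2.59. Rpl17 differed by −3.27 ± 0.14 on the log2 scale, and Rpl22l1, a paralog of Rpl22, by −3.17 ± 0.10. Rpl39, which lines the peptide exit tunnel, differed by −2.91, Rpl10, needed for the last steps of subunit maturation, by −2.75, Rpl36a by −2.69 and Rpl7 by −2.59. Falls were smaller for Rpl3, which sits near the peptidyl transferase centre, at −2.05, for Rpl22 at −1.76 ± 0.09 and for Rpl7l1 at −1.48 ± 0.08. Rpl22 had medians of 609, 558, 556 and 171 CPM in Th1, Th17, CD8 and Treg, and its Treg libraries (123 to 201) still lay apart from the rest.

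Among the small subunit genes 33 of 34 fell, with a median of −2.76. Rps12 differed by −3.39 ± 0.12, Rps27 by −3.29 ± 0.21, Rps16 by −3.29 ± 0.10 and Rps4x by −3.16. Rps12, whose start site is shown above, had medians of 1085 CPM in Th1, 1018 in Th17, 995 in CD8 and 93.9 in Treg, with Treg values of 76.5 to 129. Rps6, the substrate of the S6 kinases, differed by −2.72, and Rps27rt, a retrogene copy of Rps27, by −2.27 ± 0.18. The smallest fall in the small subunit was that of Rps27l, at −1.51 ± 0.07. The ratio of large to small subunit counts was 1.38 in Treg (1.31 to 1.42), 1.104 in Th1, 1.08 in Th17 and 1.11 in CD8. Members with a pyrimidine run at the start had a median difference of −2.72 (35 members) and those without one −2.69 (27 members).

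**Figure D2:**
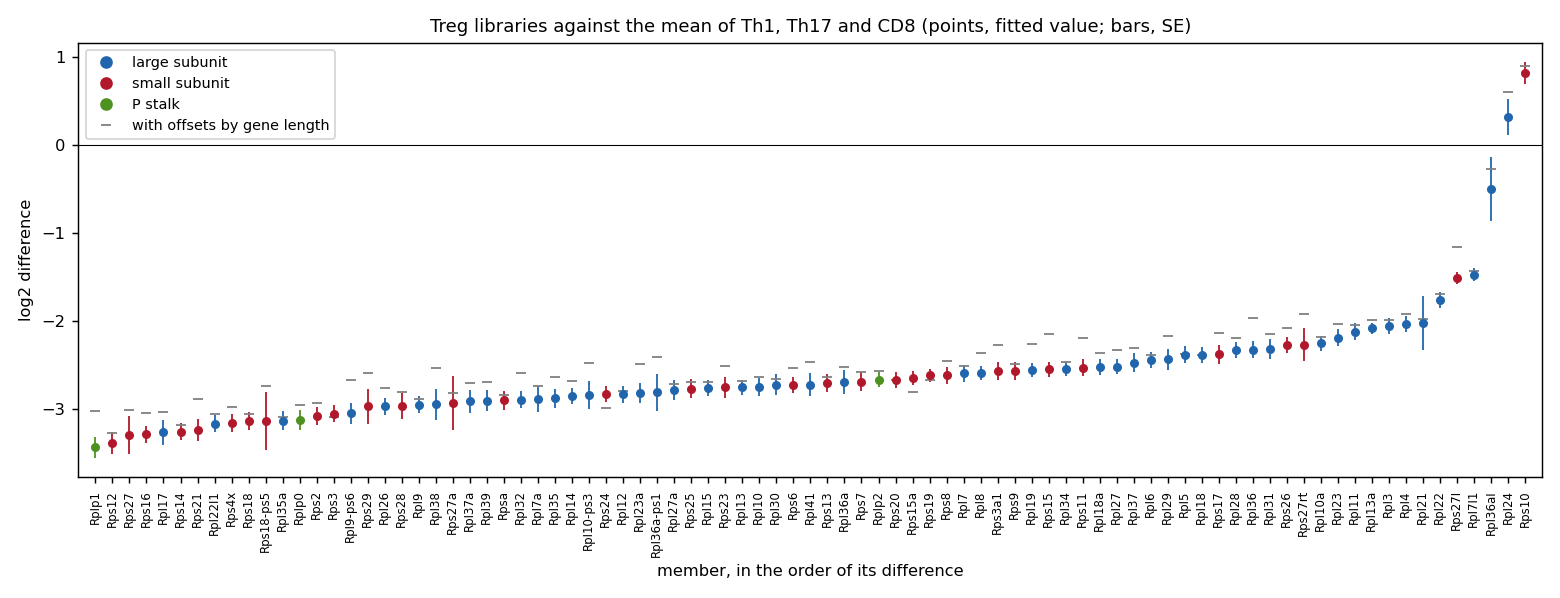
Log2 difference between Treg and the mean of Th1, Th17 and CD8 for the members tested, ordered by size, with 1 member not shown, bars of 1 SE and colours for the stalk, large and small subunit. Grey dashes are the same difference with length offsets. The members called lower run from −3.43 (Rplp1) to −1.48 (Rpl7l1), and Rps10 is the member called higher, at 0.81.

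The 3 exceptions were all scarcely counted. Rps10 was higher in Treg by 0.81 ± 0.12 (edgeR adjusted p = 8.93e-07), with lowest, median and highest values of 7.91, 12.3 and 13.9 CPM in Treg, 5.41, 6.67 and 7.73 in Th1, 4.59, 6.504 and 8.32 in Th17, and 5.12, 7.46 and 8.67 in CD8. The gene (ENSMUSG00000052146) is at 27849392 to 27855643 on the minus strand of chromosome 17 in the file's own coordinates, whose build is not given. It held 3689 counts over all libraries, while 4 Rps10 pseudogenes, mostly Rps10-ps2, held 104939, or 96.6% of the sum. Their level was 302 CPM outside Treg and 45.8 in Treg, and gene and pseudogenes summed gave a log2 ratio of −2.42. How reads were split between such near-identical copies in the authors' counting is not given, so the value of Rps10 alone is uncertain. Of the 62 members with named pseudogenes, the pseudogene part was next highest for Rpl21 (41.5%), Rpl17 (34.9%) and Rps12 (31.1%). Rpl24 differed by 0.32 ± 0.21 (edgeR adjusted p = 0.163) and Rpl36al by −0.50 ± 0.36 (adjusted p = 0.204). Their medians were 2.08 and 0.690 CPM in Treg, and another gene model, with 0 and 4 counts, lies over each on the same strand. Rps10 too is overlapped on its strand, by a protein-coding model with 0 counts. In all, 29 members had an overlapping gene model, 6 of them on the same strand. Without a stated strand setting, reads of models on opposite strands cannot be told apart. How reads shared on the same strand were assigned is not given. Rpl24 was called higher with library totals (0.66), upper-quartile scaling (0.49) or length offsets (0.60), and Rpl36al lower without the Treg library with WMS-200 (−0.90).

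Length and abundance were set beside the fall. In bins of gene length the members' median ran from −2.87 to −2.57 and that of other genes from −0.22 to 0.24. With offsets for a length trend in each library the members' median was −2.55 and 83 were lower. Among genes over 1000 CPM, 44 members had a median of −2.73 and 39 other genes −1.55. With library totals in place of TMM the median of all genes moved to 0.45, the members' to −2.37, and the share of called genes that were higher went from 52.9% to 66.7% (60.2% with upper-quartile scaling).

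Genes that work with the ribosome were lower as well. These lists had been written with earlier results of these data known and are given as counts. All 16 TOP-containing translation factors fell, with a median of −1.98, among them Eef1a1, the carrier of aminoacyl-tRNA (−3.24), Eef1g (−3.07) and Eef2 (−2.35). All 20 ribosome assembly factors fell, with a median of −1.42, among them the nucleolar methyltransferase Fbl (−2.06) and Eif6 (−1.93). The Fubi fusion Fau differed by −2.83, and Rack1, a small subunit protein outside the symbol rule, by −2.29. Of 18 genes mutated in Diamond-Blackfan anaemia, an inherited failure of red cell production, 17 fell and Rps10 was higher. Of 7 hosts of small nucleolar RNAs 6 fell, with a median of −0.78. The upstream control list was mixed, with 6 of 16 higher and 6 lower. Eif4ebp1, a brake on cap-dependent translation, differed by −2.18, Myc by −1.36, Mtor by 0.53 and its inhibitor Tsc1 by 0.71. Genes outside the ribosome fell too, with 22 of 23 short nuclear-encoded mitochondrial subunit genes lower and a median of −1.69.

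Other measures also differed between Treg and the rest. Mitochondrially encoded genes took 1.13% of counts in Treg (0.934 to 1.498%) and 0.484, 0.336 and 0.572% in Th1, Th17 and CD8. Of 4 nuclear RNAs 2 were measured and both were higher, Neat1 by 1.20 ± 0.13 and Malat1 by 0.71 ± 0.25 (log2), and the list summed to 708 to 1534 CPM in Treg and 355 to 993 in the rest. Of 6 genes listed as stromal markers 3 were measured. All 3 were higher in Treg than in the mean of the rest, and the sum was 47.4 to 60.5 CPM in Treg against 14.8 to 22.9. Most of this sum was Pecam1 at 49.6 CPM, and Epcam averaged 2.96 CPM in Treg, under its 3.92 in Th17. Col1a1 stood at 1.85 CPM in Treg and 0.357 to 0.797 elsewhere, a difference of 2.01 ± 0.30 (log2, edgeR adjusted p = 9.05e-07), while the other collagen genes, Col1a2 and Col3a1, were at 0.281 and 0.0247 in Treg. B cell markers summed to 7.58 to 12.4 CPM in Treg and 3.34 to 13.4 in the rest, with 4 of 6 higher. Myeloid and erythroid sums were under 5 CPM in every library. The part of these measures in the low family level was not tested.

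In Treg 3 paralogs stood apart in their ratio to the common partner, and 2 did not. Rps27l, induced by p53 and able to take the place of Rps27, stood per kilobase at 38.2 ± 8.93 per 100 of Rps27 in Th1, 23.98 ± 2.48 in Th17, 49.3 ± 6.38 in CD8 and 133 ± 57.9 in Treg (SD, n = 6). The lowest Treg library was at 88.1 and the highest, DMSO, at 246, above all other cell types. Rps27l, Rps27rt and Rps27 are near-identical in part, so their split depends on the counting. Rpl22l1 went the other way, with 68.2 ± 6.55 per 100 of Rpl22 in Th1, 44.1 ± 7.30 in Th17, 60.97 ± 2.73 in CD8 and 21.4 ± 1.12 in Treg. Rpl7l1, which takes part in assembly of the large subunit, stood at 5.16 ± 0.229 per 100 of Rpl7 in Th1, 3.96 ± 0.282 in Th17, 5.55 ± 0.335 in CD8 and 10.5 ± 0.775 in Treg. In Treg, then, Rps27l and Rpl7l1 were high beside their partners and Rpl22l1 was low, with no overlap with the other 18 libraries. Rps27rt per 100 of Rps27 ran from 116 to 662 in Treg and up to 181 in Th1, and Rpl36al per 100 of Rpl36a from 0.310 to 4.87 in Treg and up to 0.780 in Th1, so these overlapped.

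**Figure D3:**
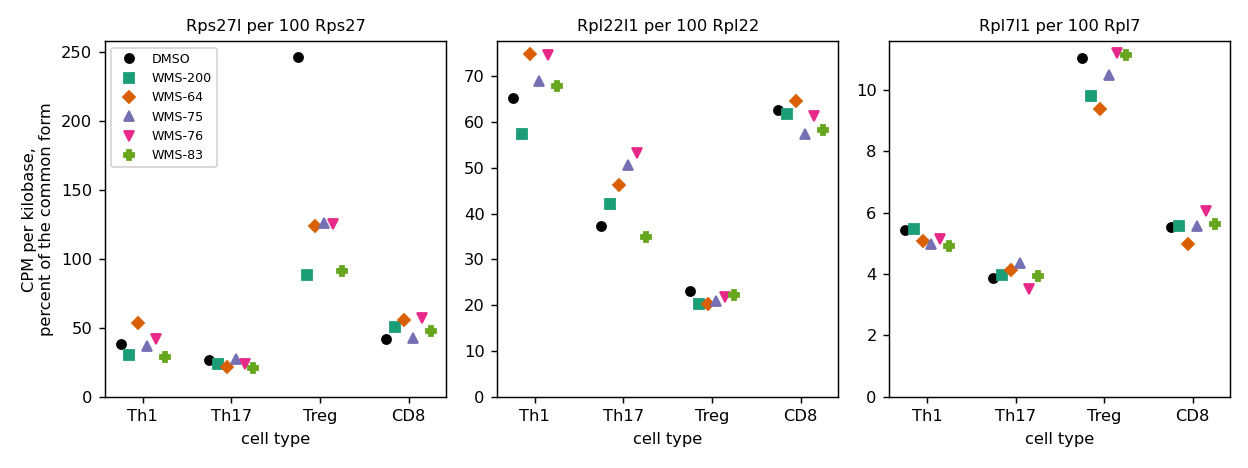
Level of 3 paralogs per 100 of the common partner, both in CPM per kilobase (y axis), for each library by cell type (x axis). Rps27l and Rpl7l1 are highest in Treg, at means of 133 and 10.5, and Rpl22l1 is lowest there, at 21.4.

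Scaled to the family's own counts, so that a value gives a member's place among the ribosomal proteins, 32 members were higher and 30 lower in Treg. On this scale 95.7% of all genes were higher and 1.11% lower. The highest member stood at 3.53 and is not among those named next. Rpl7l1 stood higher by 1.21 ± 0.05, Rps27l by 1.19 ± 0.06, Rpl22 by 0.93 ± 0.05 and Rpl4 by 0.65. These are places within the family, since with TMM scaling the same genes were lower in Treg. Rplp1 differed by −0.76 ± 0.06, Rps12 by −0.69 and Rps27 by −0.62.

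Among Th1, Th17 and CD8 the family differed far less, and a few members stood out. Between Th1 and Th17, 9 members were higher in Th1 and 0 lower, against 24.1% and 23.2% of all genes, and the median was 0.05. Rpl22l1 had lowest, median and highest values of 268, 287 and 306 CPM in Th1 and 135, 152 and 214 in Th17, without overlap, a difference of 0.83 ± 0.10 (edgeR adjusted p = 6.99e-08). Rpl13a, a member of a complex that silences inflammatory mRNAs, had 171, 179 and 198 in Th1 and 100.5, 117 and 126.5 in Th17, also without overlap (0.67 ± 0.07, adjusted p = 4.08e-09). A protein-coding gene model with 0 counts, Gm45713, lies over Rpl13a on the same strand. How reads they share were assigned is not given, so the level of Rpl13a is uncertain. Rpl10-ps3 was higher by 0.59 ± 0.15 and Rpl7l1 by 0.43 ± 0.08. Rps27l, Rps2, Rpl3, Rpl10a and Rpl14 were the other 5. At an unadjusted p under 0.05 there were 14 of 86 members and 8408 of 15885 genes. It rose to 14 adjusted calls without the Th1 library with WMS-64 and to 15 without the Th17 library with WMS-76. All Th1 libraries carry WT number 4, which no other library has, so cell type and WT number cannot be told apart there.

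Between Th1 and CD8, 15 members were higher in Th1 and 0 lower, against 7.26% and 8.69% of all genes, with a median of 0.16. Rplp0 was higher by 0.57 ± 0.11 (edgeR adjusted p = 0.000638), and its lowest Th1 library (4932 CPM) lay above its highest CD8 library (3824). Rps7, a regulator of Mdm2, had medians of 2270 CPM in Th1 and 1673 in CD8 and differed by 0.39 ± 0.11. Rpl41, which encodes the smallest ribosomal protein, had medians of 1580 and 1190 CPM and overlapped (0.39 ± 0.13). The call of Rpl41 was lost in 14 of the 24 fits that left out 1 library, with length offsets and with cell type as the only term. Rpl18 was higher by 0.38 ± 0.09. Rps27l did not pass, at −0.22 ± 0.08, with an adjusted p of 0.0512. The count depended on single libraries. It was 5 without Th1 with DMSO, 8 without Th1 with WMS-75, CD8 with WMS-76 or CD8 with WMS-83, and 9 without Th1 with WMS-200, Th1 with WMS-83, CD8 with WMS-64 or CD8 with WMS-75. It was 25 without Treg with DMSO.

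Between CD8 and Th17, 6 members were higher in CD8 and 15 lower, against 24.3% and 22.8% of all genes, with a median of −0.09. The higher ones were Rps27l (0.64 ± 0.08, edgeR adjusted p = 1.20e-07), Rpl22l1 (0.52 ± 0.09), Rpl36a-ps1, Rpl10-ps3, Rpl13a and Rpl7l1. Rpl36a-ps1 lost its call in 9 and Rpl10-ps3 in 6 of the 24 fits that left out 1 library, and both with length offsets. Rps27l had 137, 154 and 165 CPM in CD8 and 77.8, 100 and 112 in Th17, without overlap. Among the lower ones were Rplp0 (−0.65 ± 0.12, adjusted p = 3.27e-05), Rpl41 (−0.53 ± 0.13), Rps7 (−0.44 ± 0.11) and Rps14 (−0.41 ± 0.10). The paralogs Rps27l, Rpl22l1 and Rpl7l1 were thus lower in Th17 than in both Th1 and CD8, but with the WT number as a block Rpl7l1 lost its call against CD8 (0.20, edgeR adjusted p = 0.225), as did Rpl36a-ps1 (0.83, 0.0798) and Rpl39 (−0.47, 0.0522). The count of lower members was 7 without Th17 with WMS-76 or CD8 with WMS-83, 8 without Th17 with DMSO or WMS-83, and 9 without CD8 with WMS-76. It was 23 without Th17 with WMS-75 and 24 without Treg with DMSO. Of 20 ribosome assembly genes 11 were higher and 0 lower in Th1 against Th17, and 11 higher and 1 lower in CD8 against Th17.

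**Figure D4:**
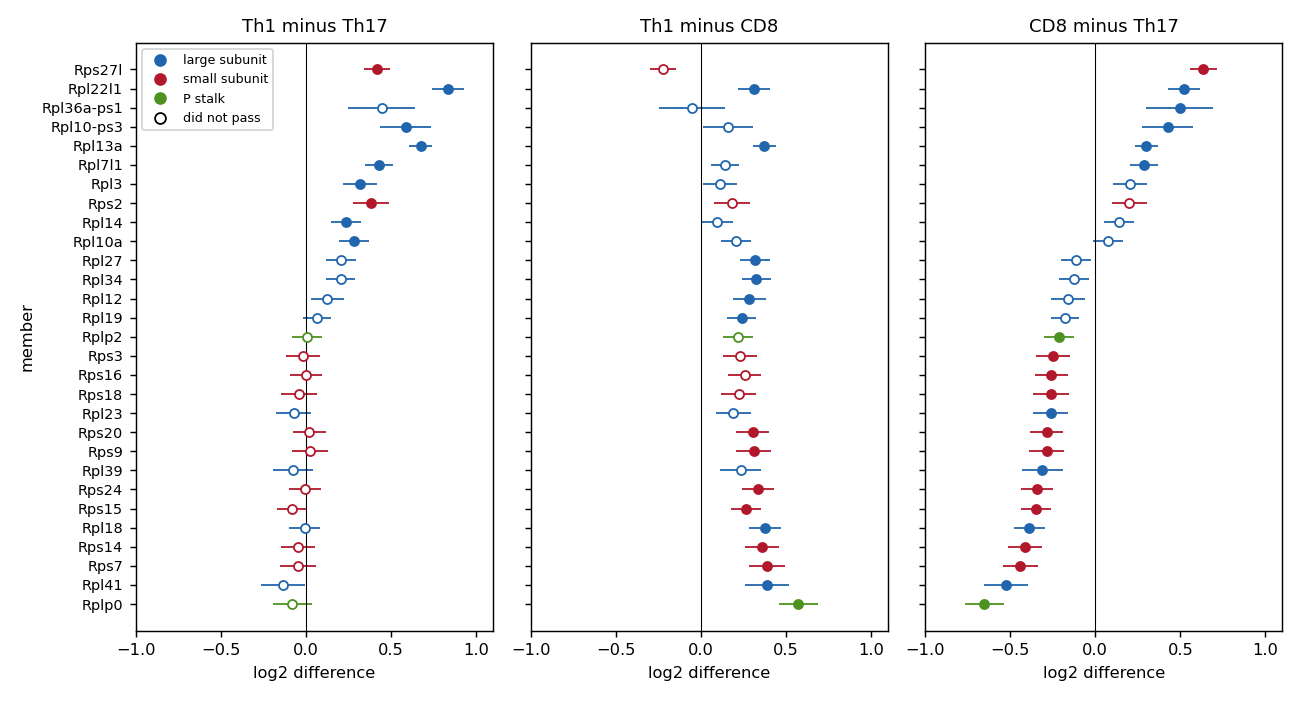
Log2 differences (x axis, with bars of 1 SE) of the members called in at least 1 of the 3 pairs among Th1, Th17 and CD8. Open symbols did not pass. Rpl22l1 and Rpl13a are highest in Th1 against Th17, at 0.83 and 0.67, and Rplp0 is lowest in CD8 against Th17, at −0.65.

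On the family's own scale, 10 members were higher and 1 lower in Th1 against Th17, beside 16.1% and 21.1% of all genes. Rpl22l1 led at 0.77, then Rpl13a at 0.61, Rpl10-ps3 at 0.54 and Rpl7l1 at 0.36, and Rps29 was the lower one at −0.42. Rps29 lost its call in 8 of the 24 fits that left out 1 library, and Rpl10-ps3 in 6 of them and with length offsets. In Th1 against CD8, 2 were higher, Rplp0 (0.37) and Rps7 (0.19), and 1 lower, Rps27l (−0.42), beside 2.32% and 17% of all genes. The call of Rps7 was marginal (edgeR adjusted p = 0.0497) and was lost in 18 of the 24 fits that left out 1 library. In CD8 against Th17, 15 were higher and 7 lower, beside 28.2% and 12.4% of all genes. Rps27l led at 0.78, then Rpl22l1 at 0.65, Rpl10-ps3 at 0.57 and Rpl13a at 0.44. The lowest 4 were Rplp0 at −0.51, Rpl41 at −0.38, Rps7 at −0.30 and Rps14 at −0.27.

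Across the cell types no agonist changed a member's transcript past the test. The 5 agonists together against DMSO gave 0 members called, and 0 of all genes, with 1 member and 504 genes at an unadjusted p under 0.05 (edgeR). The counts at that p were 6 members (620 of 15885 genes) for WMS-83, 2 (488) for WMS-76, 1 (548) for WMS-75, 15 (1021) for WMS-64 and 0 (246) for WMS-200, and each compound had 0 adjusted calls. DESeq2 also called 0 members in these comparisons. The median member differed by 0.11 for the agonists together, and its median 95% interval ran from −0.09 to 0.32. For single compounds the medians and intervals were 0.21 (−0.06 to 0.47) for WMS-83, 0.11 (−0.15 to 0.39) for WMS-76, −0.04 (−0.29 to 0.22) for WMS-75, 0.21 (−0.06 to 0.49) for WMS-64 and 0.08 (−0.19 to 0.34) for WMS-200. These share the DMSO libraries. For the agonists together the interval lay within 1 log2 unit of 0 for 84 of 86 members. The member with the smallest p was Rpl10-ps3, at 0.33 ± 0.15 (adjusted p = 0.992).

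The compounds were compared in 10 pairs at the one dose. The F-test among the 5 agonists called 0 members and 0 genes, with 2 members and 444 genes at an unadjusted p under 0.05. The 10 pairs also gave 0 members, with the p adjusted over all genes and pairs. The widest separation was between WMS-64 and WMS-75, with a median of 0.25 (median interval −0.02 to 0.51) and 33 of 86 members at an unadjusted p under 0.05, or 38.4% of them, against 8.70% of all genes. WMS-75 against WMS-83 had a median of −0.24 (−0.50 to 0.03) and 29 members, or 33.7%, against 6.84%. The interval for WMS-64 against WMS-75 lay within 0.5 of 0 for 37 of 86 members and within 1 for 82. The library with the lowest level for its cell type among all Th17 libraries was that with WMS-75, where the median member was 0.36 below the Th17 mean.

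In Treg alone, the 5 agonist libraries lay above the single DMSO library. As replicates of one another they had 46 members higher and 0 lower (edgeR), against 7.64% of all genes higher, and the median was 0.59, against 0.07 for all genes. For 76 members all 5 agonist libraries were above DMSO, as for 28.8% of all genes. The DMSO group was 1 library, assumed to vary like the others. Rpl30 had 80.3 CPM with DMSO and 172, 161, 125, 164 and 168 with WMS-83, WMS-76, WMS-75, WMS-64 and WMS-200 (0.98 ± 0.21). Rpl23a, near the exit tunnel, had 83.3 CPM with DMSO and 144, 149, 145, 196 and 125 in that order (0.87 ± 0.18, adjusted p = 0.00477). Rps13 had 70.4 with DMSO and 134, 105, 116, 150 and 107 (0.80 ± 0.17), and Rps27 had 19.1 and then 67.7, 48.7, 45.2, 51.7 and 54.2 (1.49 ± 0.34). Rpl30, Rpl23a and Rps13 were named after their values were seen. Against DMSO the median member differed by 0.78 for WMS-83, 0.49 for WMS-76, 0.44 for WMS-75, 0.80 for WMS-64 and 0.35 for WMS-200. These 5 values share the single DMSO library and are not separate observations.

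Of the related lists, 13 of 16 translation factors and 11 of 20 assembly genes were higher with the agonists in Treg, and 0 of 7 small nucleolar RNA hosts. Myc was higher by 0.82 ± 0.14 (edgeR adjusted p = 0.00171). The Treg libraries with DMSO and WMS-200 have WT number 3 and the other 4 have 2. With the WT number as a block the comparison rested on WMS-200 against DMSO and no member passed, with Rpl30 at 1.07 (adjusted p = 0.0995) and Rpl23a at 0.58 (0.263). The count of higher members was 24 without Treg with WMS-64 and 25 without Treg with WMS-83. It was 22 with RLE size factors, 23 with upper-quartile scaling and 29 with length offsets. In the other cell types 0 members were higher with the agonists, beside 0% of all genes in Th1, 0.0126% in Th17 and 0% in CD8. At an unadjusted p under 0.05 there were 1, 1 and 0 members in Th1, Th17 and CD8, beside 517, 531 and 320 genes. The family share was lower with agonists on average in Th1 (−0.323 percentage points, 2 of 5 above DMSO) and CD8 (−0.364, 1 of 5), and higher in Th17 (0.397, 4 of 5) and Treg (0.752, 5 of 5). The test of whether the agonist effect differed between cell types called 0 members and 0.176% of all genes. Its smallest adjusted p for a member was 0.0924 (Rpl23a), and 46 of 86 members and 2047 of 15885 genes were at an unadjusted p under 0.05. It called 11 members without Treg with WMS-200 and 2 without Th17 with WMS-75.

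**Figure D5:**
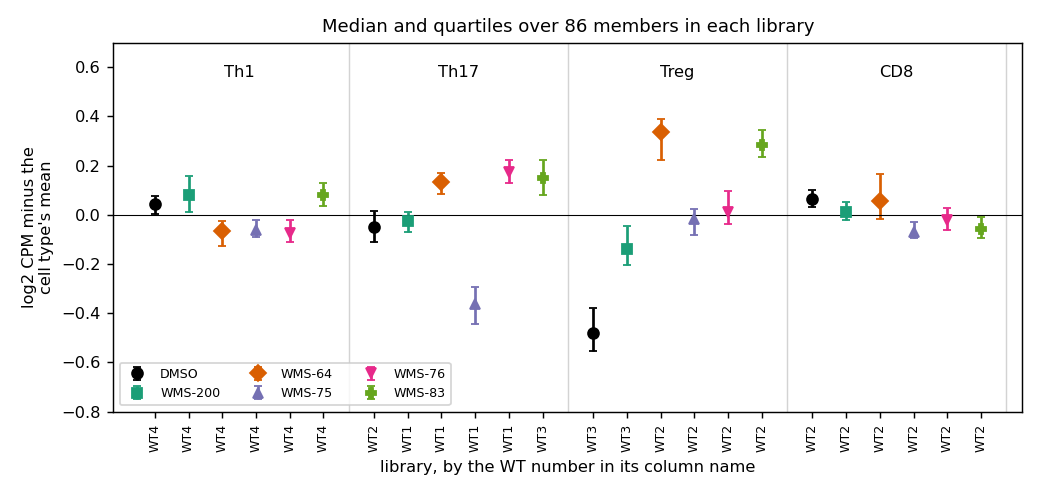
Median log2 deviation of the 86 members from their cell type's mean (y axis) for each of the 24 libraries, with bars from the lower to the upper quartile of members and the WT number under each library. Treg with DMSO is lowest at −0.48, Treg with WMS-64 highest at 0.34, and Th17 with WMS-75 stands at −0.36.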

How the data were processed

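The deposited values were raw read counts per gene, for which the submitters' processing notes name featureCounts, HISAT2 and fastp. The sources used here give no version, strand setting, treatment of multiply mapped reads, genome build or annotation. All 24 columns matched a labelled sample. Bulk RNA libraries were scaled by TMM and fitted in R 4.3.3 with edgeR 4.0.16 (quasi-likelihood, robust) over 15885 of 56748 genes, after filterByExpr (grouped on cell type, min.count 10). P-values were adjusted over all these genes by Benjamini and Hochberg (threshold 0.05). One model had terms for cell type and compound (15 residual degrees of freedom, biological coefficient of variation 0.133), another agonist or DMSO within each cell type (16, 0.127), and another took the family's summed counts as the library size. Replicates are libraries with different treatments, and p-values measure only the spread between them, which may be technical. Errors after log2 differences are standard errors. Only the model of cell type and compound and that of agonists within cell types, both with TMM scaling, were tested on simulated data. Alternatives were DESeq2 1.42.0, other scalings and filters, length offsets (loess, span 0.3), WT number as a block, subsets of members, and each library left out. Planned permutation tests of the family share were not run, since no p is given here for a score over the members. The members, gene lists and tests were chosen with earlier results of these data known. Named genes are the stalk genes, paralogs and partners, a set number of the largest differences per comparison (6 in each direction for Treg, 4 otherwise), the 5 highest and lowest levels, the 3 smallest p per compound and at most 4 genes per other list, and others named beside them were chosen after their values were seen. Some results are not reported here.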

Additional observations from a re-analysis of the deposited data

Results flagged for a closer look

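Groups of 6 libraries by cell type covered 29 named members, the family share, the stalk share and the large to small subunit ratio. In 7 of 128 such groups, 1 library stood apart from the other 5. Its gap to its neighbour was large beside the group's range (Dixon's criterion). Chance flags about 1 in 20 groups, or 6.4 here. In Th1, Rpl36al was at 2.41 CPM with WMS-64, and the next library was at 1.31. In Th17, Rpl22 was lowest with WMS-75, at 418.02 CPM against 530.271, and Rpl10-ps3 highest with WMS-76, at 23.96 against 13.565. In Treg, Rps10 was lowest with WMS-64, at 7.913 CPM against 11.863. In CD8, Rps7 was highest with DMSO, at 1963.87 CPM against 1744.44. Rpl41 and Rpl18 were both highest in CD8 with WMS-64, at 1484.86 against 1221.58 and 1813.09 against 1539.47.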

How the results depend on the processing

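The 83 members lower in Treg were lower in every alternative over all members, with a median of −2.37 under library totals (−2.72 as reported). The count higher in Treg was 2 under library totals, upper-quartile scaling and length offsets, and 0 without paralogs and members under 10 CPM or without members overlapped on their strand. The cause was not tested for any other change. With no low-count filter the members called were 16 higher and 4 lower in Th1 against Th17, 30 higher and 1 lower in Th1 against CD8, 32 lower in CD8 against Th17, 1 lower for the agonists in Th1, 3 for all agonists, 6 for WMS-83, 4 for WMS-76, 1 for WMS-75, 7 for WMS-64, 1 for WMS-200, 20 among agonists, 36 over pairs of compounds and 43 for the interaction. On the family's scale, no filter gave 2 lower in Th1 against Th17 and 1 higher in Th1 against CD8. DESeq2 gave 9 lower in Th1 against Th17, 5 higher and 5 lower in Th1 against CD8, and 25 higher and 14 lower in CD8 against Th17 on that scale. Length offsets gave 1 lower in Th1 against Th17 (7 on the family's scale), 23 lower in CD8 against Th17 and 29 higher for agonists in Treg. Upper-quartile scaling gave 15 higher in Th1 against Th17 and 23 for agonists in Treg, where RLE factors gave 22. In Th1 against CD8, 1 member was lower with RLE factors, library totals, upper-quartile scaling, DESeq2, length offsets or cell type as the only term. Without paralogs and scarce members, CD8 against Th17 had 2 higher, and Th1 against CD8 on the family's scale 1 higher and 0 lower. That contrast also had 1 higher without overlapped members. With the WT number as a replicate block, CD8 against Th17 had 3 higher and the agonists in Treg 0. The labels do not explain the number, so it shows no pairing by design. Over all genes, upper-quartile scaling called 4252 higher in Th1 against Th17 (3828 as reported). Length offsets called 3692 lower in that contrast (3680 as reported) and 3702 lower in CD8 against Th17 (3626 as reported). For the other settings counts over all genes are not given here, so their member counts cannot be set beside a background.

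Leaving out each library in turn gave ranges of 8 to 15 higher and 0 to 1 lower in Th1 against Th17, 5 to 25 higher and 0 to 1 lower in Th1 against CD8, and 7 to 24 lower in CD8 against Th17. The range was 24 to 58 higher for the agonists in Treg and 0 to 11 for the interaction. On the family's scale it was 1 to 4 higher in Th1 against CD8, 0 to 4 lower in Th1 against Th17 and 5 to 11 lower in CD8 against Th17. Leaving out a DMSO library leaves no comparison of agonists in that cell type. Counts over all genes are not given for the fits that left out 1 library, here or above. Depth does not limit most members, but Rpl24 and Rpl36al, with 793 and 532 counts over all libraries, are imprecise. Their counts may also depend on how reads shared with the models over them were assigned.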
